A study of Mus musculus with 8 samples.

Results

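The loss of claudin-7 was compared between the small and the large intestine of newborn mice, and the genes described here are those whose response to the loss differed between these segments. All 8 of 8 arrays of the series entered the comparison. By their titles they form 4 groups, wild type and knockout of each segment, with 2 arrays in each group (numbered 2 and 3). All pups were 3 days old, untreated and of the 129SV strain, and the knockout pups lacked claudin-7 by genotype. Intestinal fragments were used whole, so that epithelium, muscle, nerve and blood cells contributed RNA. In such tissue fewer cells of a type and less RNA per cell cannot be told apart. For each gene, the log2 difference between knockout and wild type was computed in each segment, and the small intestine value was subtracted from the large intestine value. A positive difference therefore means that the knockout effect was higher in the large intestine. Of 20002 genes tested, 28 passed at an adjusted p under 0.05 (0.14%, limma with Benjamini-Hochberg adjustment), 19 with a positive difference (0.095%) and 9 with a negative one (0.045%), while 5173 (25.9%) had an unadjusted p under 0.05.

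Claudins are membrane proteins that join neighbouring epithelial cells at tight junctions and, in the case of claudin-7, also along the lateral and basal membrane. Loss of claudin-7 in mice is known for severe intestinal disease soon after birth. The small intestine carries villi and absorbs nutrients, whereas the large intestine lacks villi, recovers salt and water and holds many goblet cells. In adults each segment renews its epithelium from crypts.

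The 28 genes fall into a few patterns. The main one was a fall in the knockout small intestine with no called change in the large intestine. It held the gasdermin C genes Gsdmc, Gsdmc3 and Gsdmc4, which encode pore-forming proteins of the gut epithelium, the chemokine gene Ccl28 and the genes of several enzymes. The crypt base gene Olfm4, the membrane protein gene Ms4a12 and the cytotoxic granule gene Gzmb fell in the small intestine and rose in the large intestine. Zg16, Mup20 and Crisp3 rose in the small intestine alone, and Klk15 fell and Sprr2k rose in the large intestine alone. In these statements "alone" means that the other segment did not pass and that the difference between segments itself passed. For Crisp3, Klk15 and Sprr2k neither group of the other segment was well above background, so that no effect could be measured there. For them "alone" does not show that the other segment was unchanged.

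Promoter sequence was at hand for 18 of the 28 genes (RefSeq windows of build GRCm38.p6, 300 bases each, mostly upstream of a gene's start). Windows of 3 genes are shown because these genes carry the patterns that follow, a reversal between segments (Olfm4, Ms4a12) and a small intestinal fall of a gasdermin (Gsdmc3). Capitals mark TTTAT, the core letters bound by CDX factors of the gut, on either strand (ATAAA when read on the other strand), and TATAAA, which always overlaps such a match. The windows lie on GRCm38.p6 at chr14:80000052-80000351 (plus strand, Olfm4), chr15:63878509-63878808 (minus strand, Gsdmc3) and chr19:11232404-11232703 (minus strand, Ms4a12).
Olfm4: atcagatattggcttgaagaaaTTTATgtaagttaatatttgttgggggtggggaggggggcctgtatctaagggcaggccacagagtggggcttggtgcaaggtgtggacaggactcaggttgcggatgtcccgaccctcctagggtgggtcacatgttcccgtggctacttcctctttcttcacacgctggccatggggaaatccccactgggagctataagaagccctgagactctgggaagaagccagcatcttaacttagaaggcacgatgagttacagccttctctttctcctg
Gsdmc3: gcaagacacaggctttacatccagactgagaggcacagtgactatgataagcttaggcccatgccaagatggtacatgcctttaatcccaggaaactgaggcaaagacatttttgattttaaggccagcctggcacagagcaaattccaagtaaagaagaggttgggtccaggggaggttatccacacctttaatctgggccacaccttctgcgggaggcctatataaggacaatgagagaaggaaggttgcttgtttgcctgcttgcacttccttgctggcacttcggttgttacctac
Ms4a12: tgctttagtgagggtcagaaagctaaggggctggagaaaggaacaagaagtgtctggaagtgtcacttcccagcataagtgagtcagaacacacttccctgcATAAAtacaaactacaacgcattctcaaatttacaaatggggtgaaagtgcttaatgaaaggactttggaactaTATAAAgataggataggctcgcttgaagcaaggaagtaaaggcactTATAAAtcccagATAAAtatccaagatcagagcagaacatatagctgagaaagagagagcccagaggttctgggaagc
The Olfm4 window holds 1 match of TTTAT, that of Ms4a12 holds 4 matches of TTTAT and 2 of TATAAA, and that of Gsdmc3 holds 0 of either. TTTAT occurs in 40.0% of all 32851 promoter windows, and 7 of the 18 genes had it in any of their windows (38.9%). TATAAA occurs in 13.6% of all windows, and 5 of the 18 genes had it in any window (27.8%). A gene can have several windows, so that shares of genes and shares of windows are not directly comparable. A match describes the letters only.

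Signal is given throughout as a log2 level, the log2 processed signal of a probe minus the 75th percentile of its array, so that a level of 0 equals that percentile. Values after ± are standard errors of a log2 difference from the fit over all 8 arrays. Levels of different probes are not comparable with each other. A probe is called not well above background where the scanner software did not call it so on either array of a group, and such a group gives a bound ("at least"). The bound is the brighter group's mean over the dimmer group's mean, where each dim array counts at its own value or at its detection floor, whichever is higher. That floor is the lowest level called well above background on the array. Sprr2k, Saa4, Crisp3, Gm16368 and 4930579F01Rik were kept for testing only through a single group, the one where they were bright. Their differences, standard errors and p-values rest partly on values not well above background, and the choice of genes favours such a pattern. The number of arrays limits the precision, since the median standard error of the difference was 0.39. Labels do not say whether the samples of a group came from separate animals, so that the p-values measure the spread between these samples, which may be technical.

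In the small intestine 2006 genes passed (10%), 1295 higher (6.47%) and 711 lower (3.55%), against 62 (0.31%) in the large intestine, 33 higher (0.165%) and 29 lower (0.145%). Counts of list members given below are to be read against these shares of all genes. An effect of at least 1 on the log2 scale was found for 21.7% of genes in the small and 8.56% in the large intestine, whatever the test. The counts of genes that passed moved with single arrays. In the small intestine the count was 3827 without knockout small intestine replicate 2, 70 without knockout and 71 without wild-type small intestine replicate 3. It was 105 without either wild-type and 779 without either knockout large intestine array. The large intestine count was 0 without either wild-type large intestine array and 22 without knockout large intestine replicate 2. With the 2 compared groups alone the order of the segments turned (35 in the small and 121 in the large intestine), as it did without both knockout arrays numbered 3 (14 and 100) and without knockout small intestine replicate 3 (70 and 76). Of the 28 genes, 24 passed alone in the small intestine (6 higher, 18 lower) and 9 in the large intestine (5 higher, 4 lower), and 5 passed in both. The effect was the larger one in the small intestine for 20 of them. The 28 genes kept the direction of their difference under every alternative in which they could be tested. Their number did not hold: it was 0 with genotype and number together as a block (limma, 4653 genes at an unadjusted p under 0.05; Olfm4 had the adjusted p 0.0685) and 5 with probes well above background on all arrays. With single arrays left out, it was 986 without knockout small intestine replicate 2, 43 without wild-type small intestine replicate 2 and 53 without knockout large intestine replicate 3. It was 1 without wild-type small intestine replicate 3 and without either wild-type large intestine array, 10 without knockout small intestine replicate 3 and 15 without knockout large intestine replicate 2. The share of positive differences, 67.9% here, was 52% after quantile normalization, 55.9% in the deposited table and 46.6% of the 986 genes without knockout small intestine replicate 2.

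**Figure D1:**
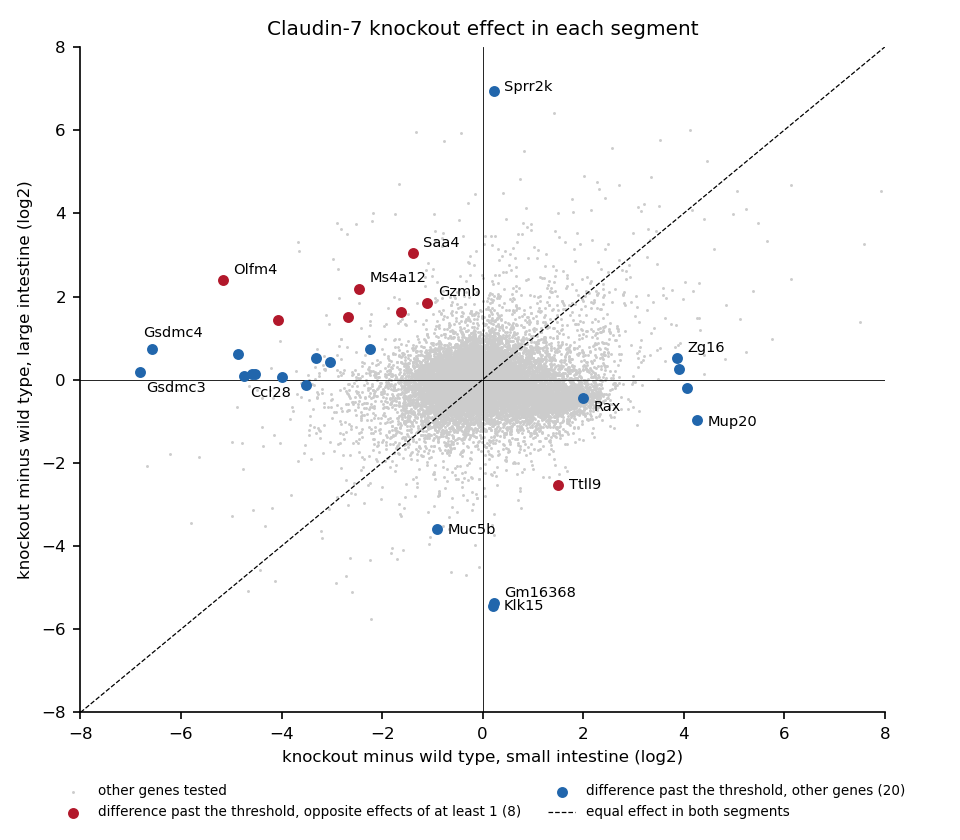
Knockout minus wild type (log2) in the small intestine (horizontal) and the large intestine (vertical) for all 20002 genes, with the 28 genes past the threshold for the difference in colour and some of them named. Many coloured points lie near the horizontal axis on the left, as genes with a called fall in the small intestine only. A further 8 lie in the upper left or lower right quadrant with fitted effects of at least 1 in both segments.

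The arrays differed in ways that the groups do not explain. Replicate 3 of each knockout group had Xist at -2.42 and -2.43, against a range of -7.46 to -6.25 elsewhere, and low Y-linked genes. Without these 2 arrays 11 genes passed, 1 of them among the 28. Liver genes were high on knockout large intestine replicate 2 (median of the 19 measured genes 3.36, as log2 level minus the mean of the gene, with -1.06 to -0.18 on the other 7). Exocrine pancreas genes were high on large intestine replicate 2 of the wild type (2.84) and replicate 3 of the knockout (2.89), while the other arrays spanned -1.68 to 0.23. Smooth muscle genes were low on wild-type small intestine replicate 3 (-1.36, against -0.37 on replicate 2). All arrays lay on 1 slide scanned on 1 day, with 1 slide column for each group, so that column and group cannot be told apart. Marker lists differed between the segments as labelled: in wild type the median of the small intestinal enterocyte list was 2.05 lower in the large intestine (-2.05), and that of the colonic epithelium list 1.58 higher.

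Cldn7, the targeted gene, was examined first. Its probe (chromosome 11, 69781255 to 69781314, mm9) read 5.89 and 5.93 in wild-type and 2.21 and 0.94 in knockout small intestine. In the large intestine it read 5.70 and 5.56 in wild type and 2.08 and 2.16 in the knockout. Both knockout groups lay below both wild-type groups, with no overlap. The fall was 4.34 in the small intestine (-4.34 ± 0.39, adjusted p = 0.00794) and 3.52 in the large intestine (-3.52 ± 0.39, adjusted p = 0.0338). The difference between segments was 0.82 ± 0.55 and did not pass (adjusted p = 0.378), which does not show that the loss was equal. Without knockout small intestine replicate 2 it was 1.45 (adjusted p = 0.0481). Leaving out any 1 large intestine array ended the call of the large intestine fall, with an adjusted p of 0.231 and 0.300 without wild-type replicate 2 and 3, and of 0.104 and 0.0790 without knockout replicate 2 and 3. Whether the probe lies in the deleted part of the gene is not known here.

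**Figure D2:**
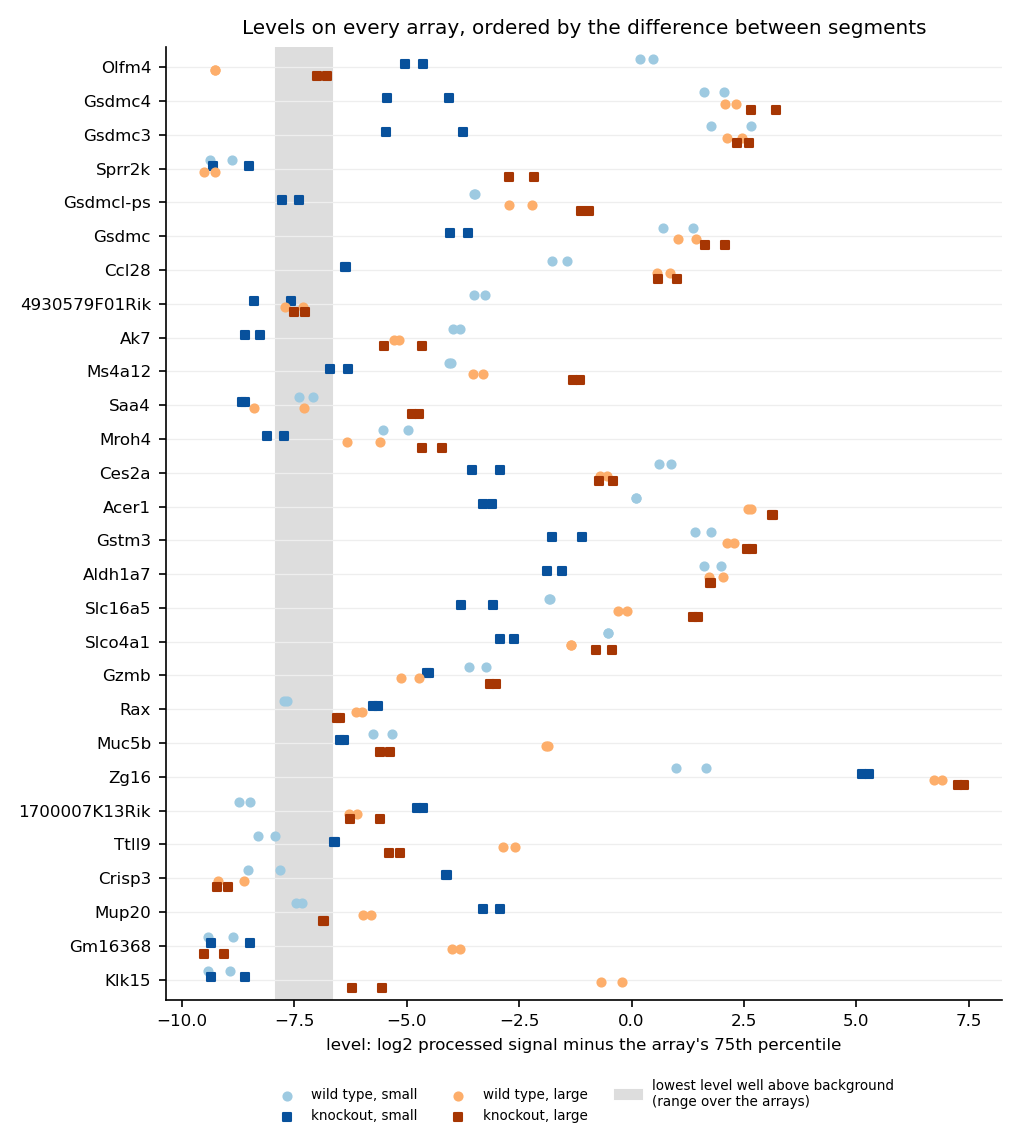
Log2 level of each of the 28 genes (rows, ordered by the difference between segments) on every array, with 2 points for each group. The grey band spans the lowest level called well above background on the arrays (-7.90 to -6.66), and a reader should see that the gasdermin C genes drop only in the knockout small intestine, while Klk15 and Gm16368 are bright only in the large intestine.

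Olfm4, a secreted glycoprotein of the crypt base, had the largest fitted difference of the 28, with the large intestine side limited by background. In wild-type small intestine it read 0.18 and 0.47, and in knockout small intestine -4.64 and -5.05. In wild-type large intestine it read -9.27 on both arrays, not well above background, and in knockout large intestine -6.78 and -6.98, with 1 of the 2 arrays well above background. Levels thus ran down from wild-type to knockout small intestine and then from knockout to wild-type large intestine, and no groups overlapped. Olfm4 fell 36.1-fold in the small intestine (-5.17 ± 0.22, adjusted p = 0.002) and was at least 1.3-fold higher in the knockout large intestine (adjusted p = 0.0254). The fitted difference was 7.56 ± 0.32 (adjusted p = 0.00184). It lay below that of Gsdmc4 with normexp background correction (4.85 against 6.57) and in the deposited values (5.85 against 6.87). It was the gene that passed most often, in 19 of 20 alternatives.

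Olfm4 is 1 of 21 genes of the crypt stem cell list. Of these 1 passed the difference (Olfm4), the list's median difference was 0.34 beside 0.14 over all genes, and 4 members fell and 1 rose in the knockout small intestine. Lrig1, a receptor that restrains growth factor signalling, rose in the small intestine by 1.65 (adjusted p = 0.0247) and read 2.90 and 2.92 as group means in wild-type and knockout large intestine. Its difference of -1.63 ± 0.35 did not pass (adjusted p = 0.0994).

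The gasdermin C genes sit beside each other on chromosome 15 and encode proteins that can form membrane pores after cleavage. Gsdmc4 (63723278 to 63723337, mm9) read 1.61 and 2.06 in wild-type small intestine and -4.06 and -5.43 in the knockout. Its large intestine levels were 2.07 and 2.31 in wild type and 2.65 and 3.21 in the knockout. The knockout small intestine was the low group and the other 3 groups lay within 1.61 to 3.21. The fall in the small intestine was 95.8-fold (-6.58 ± 0.46, adjusted p = 0.00338). The large intestine effect was 0.74 ± 0.46 (adjusted p = 0.522), and the difference was 7.32 ± 0.65 (adjusted p = 0.0242).

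Gsdmc3 (63689307 to 63689366) read 1.77 and 2.66 in wild-type and -3.75 and -5.45 in knockout small intestine. Its large intestine arrays read 2.11 and 2.45 in wild type and 2.35 and 2.61 in the knockout. The large intestine groups overlapped. Its fall in the small intestine was 113-fold, the largest among the 28 genes (adjusted p = 0.00641). The difference was 7.01 ± 0.79 (adjusted p = 0.048), close to the threshold, and it did not pass in 13 of 21 alternatives.

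Gsdmc (63608169 to 63608228) followed the same course, from 0.71 and 1.37 in wild-type to -4.03 and -3.64 in knockout small intestine, a fall of 29.3-fold. It read 1.03 and 1.43 in wild-type and 1.63 and 2.08 in knockout large intestine. The difference was 5.49 ± 0.45 (adjusted p = 0.0166). Gsdmcl-ps, whose name marks it as a pseudogene of the cluster, read -3.49 and -3.51 in wild-type small intestine and was not well above background in the knockout, a fall of at least 11.2-fold (adjusted p = 0.00338). Its large intestine arrays read -2.21 and -2.72 in wild type and -0.94 and -1.13 in the knockout. These groups did not overlap, but the effect of 1.43 ± 0.25 did not pass (adjusted p = 0.104). Its difference was 5.51 ± 0.35 (adjusted p = 0.00746).

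The gasdermin C genes are close paralogs, so that a probe could read more than 1 of them. The probes of the 4 genes shared at most 36 of 60 bases in an ungapped comparison (Gsdmc with a Gsdmc3 probe), and the other pairs shared 18 to 22. Probes were compared only with each other, and even the 2 probes of Gsdmc3 shared only 20 bases. Whether a probe matches the transcript of another gasdermin C gene was not tested. Of the 12 measured genes of the gasdermin list (gasdermins with the caspases and elastase that cleave them), 3 passed the difference (Gsdmc, Gsdmc3 and Gsdmc4) and 4 fell in the small intestine. The list's median difference was 0.999 beside 0.14 over all genes.

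Ccl28, an epithelial chemokine that draws antibody-secreting cells to mucosal surfaces, read -1.77 and -1.44 in wild-type small intestine and -6.37 and -6.34 in the knockout, where 1 of 2 arrays was well above background. In the large intestine it read 0.86 and 0.56 in wild type and 0.59 and 1.01 in the knockout, and these groups overlapped. The fall in the small intestine was 26.9-fold (-4.75 ± 0.24, adjusted p = 0.002), and the difference was 4.84 ± 0.33 (adjusted p = 0.0087). The B and plasma cell list, which holds the cells this chemokine acts on, had a median effect of -0.72 in the small and -0.58 in the large intestine, and its part in the result was not tested.

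Several genes of epithelial metabolism fell in the knockout small intestine while their large intestine effects were small. Ces2a, a carboxylesterase, read 0.89 and 0.60 in wild-type and -2.94 and -3.54 in knockout small intestine, and -0.71, -0.56, -0.72 and -0.42 on the 4 large intestine arrays. Its fall was 15.8-fold and its difference 4.05 ± 0.37 (adjusted p = 0.0252). The 4 large intestine arrays thus lay between the wild-type and the knockout small intestine.

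Acer1, an alkaline ceramidase, read 0.09 and 0.10 in wild-type and -3.11 and -3.31 in knockout small intestine, and 2.58, 2.64, 3.14 and 3.12 in the large intestine, the last 2 from the knockout. The fall in the small intestine was 9.9-fold (adjusted p = 0.00247), and the difference was 3.82 ± 0.25 (adjusted p = 0.00746). The large intestine effect of 0.52 ± 0.18 did not pass (adjusted p = 0.308), although its groups did not overlap.

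Gstm3, a glutathione S-transferase, read 1.77 and 1.41 in wild-type and -1.77 and -1.10 in knockout small intestine, against 2.12 to 2.67 on the 4 large intestine arrays. Aldh1a7, an aldehyde dehydrogenase, read 1.61 and 1.99 in wild-type and -1.88 and -1.55 in knockout small intestine, against 1.72 to 2.04 in the large intestine. The differences were 3.45 ± 0.38 (adjusted p = 0.0475) and 3.39 ± 0.33 (adjusted p = 0.0304). For Gstm3 a second kept probe gave 0.96, the mean of its probes gave 2.20 (adjusted p = 0.094), and the difference did not pass in 15 of 21 alternatives. For Aldh1a7 the wild-type small intestine and both large intestine groups overlapped, and the knockout small intestine alone stood apart. Of the 24 measured genes of the oxidative stress and detoxification list, 4 fell in the small intestine and 1 fell in the large intestine, with a median difference of 0.49.

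Slco4a1, an organic anion transporter, read -0.52 on both wild-type and -2.92 and -2.61 on the knockout small intestine arrays, a fall of 4.75-fold (adjusted p = 0.00943). It read -1.34 and -1.35 in wild-type and -0.78 and -0.44 in knockout large intestine. The difference was 2.99 ± 0.30 (adjusted p = 0.0338) and did not pass in 13 of 21 alternatives. Ak7, an adenylate kinase of motile cilia, read -3.97 and -3.81 in wild-type small intestine and was not well above background in the knockout, a fall of at least 8.59-fold (adjusted p = 0.00338). Its large intestine arrays read -5.28 and -5.17 in wild type and -5.50 and -4.67 in the knockout, with overlap, and its difference was 4.68 ± 0.43 (adjusted p = 0.0252). The clone-named gene 4930579F01Rik was well above background in wild-type small intestine alone (-3.51 and -3.27). There it fell at least 12.1-fold in the knockout (adjusted p = 0.00338), and its difference was 4.72 ± 0.44 (adjusted p = 0.0252).

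A reversal was counted where the difference passed and the fitted effects had opposite signs of at least 1 on the log2 scale in each segment. It was met by 8 genes (0.04% of those tested), namely Olfm4, Gsdmcl-ps, Ms4a12, Saa4, Mroh4, Slc16a5, Gzmb and Ttll9. In 4 of them, Olfm4, Ms4a12, Gzmb and Ttll9, each segment's effect also passed alone (0.02%). Saa4 had no measurable small intestine effect. The large intestine rise of Olfm4 (at least 1.3-fold) and the small intestine rise of Ttll9 (at least 1.6-fold) are bounds below 2-fold, so that background leaves the size of these reversals unmeasured. Opposite effects of that size, whatever the test, were found for 175 genes (0.875%). The count of 8 was 50 without knockout small intestine replicate 2 and 18 without knockout large intestine replicate 3. It was 4 without knockout small intestine replicate 3, 5 without knockout large intestine replicate 2, and 1 without wild-type small intestine replicate 3 or either wild-type large intestine array.

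**Figure D3:**
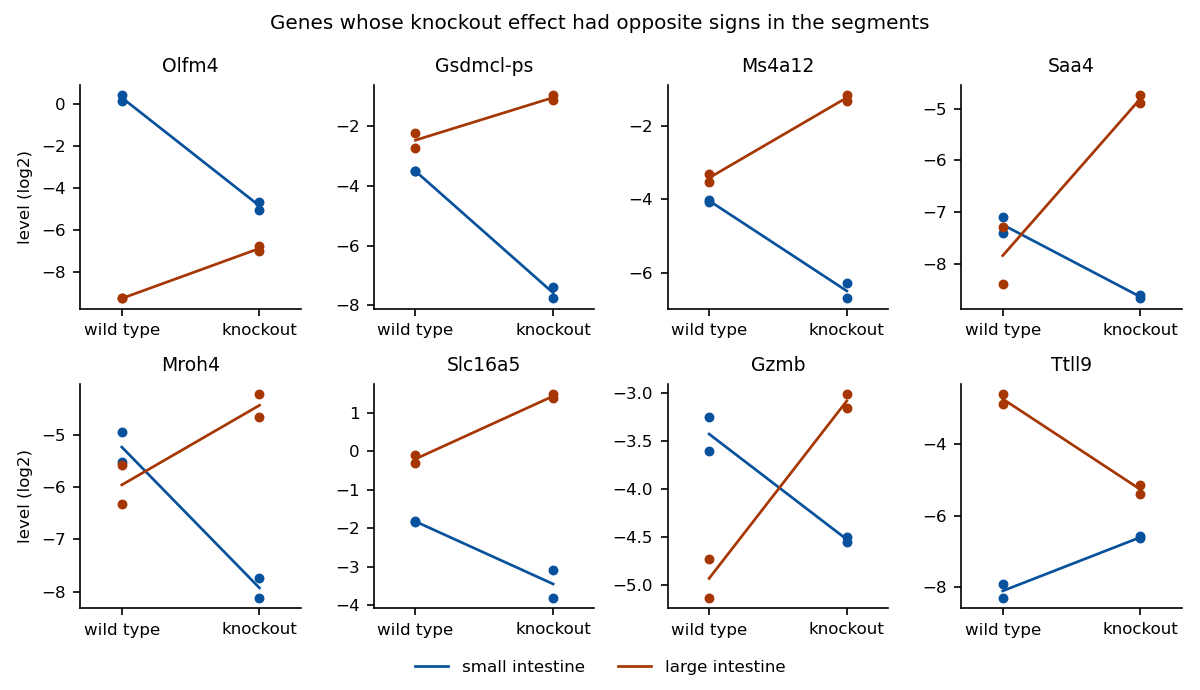
Log2 level of the 8 genes with opposite knockout effects in the segments, with each array as a point and lines joining the means of wild type and knockout within a segment (axes differ between panels). In 7 panels the small intestine line falls and the large intestine line rises, and for Ttll9 the slopes are the other way round. Not well above background with the probe drawn were Saa4 in the small intestine and wild-type large intestine, and Olfm4 in wild-type large intestine. The same held for Ttll9 in wild-type small intestine, and for Gsdmcl-ps and Mroh4 in knockout small intestine.

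Ms4a12, a membrane protein of the MS4A family, read -4.07 and -4.01 in wild-type small intestine. In knockout small intestine it read -6.71 and -6.30, with 1 of the 2 arrays well above background. It read -3.31 and -3.52 in wild-type and -1.14 and -1.31 in knockout large intestine. The fall was 5.52-fold in the small intestine (adjusted p = 0.00789) and the rise 4.56-fold in the large intestine (adjusted p = 0.0274). Wild-type segments lay 0.62 apart, which did not pass (adjusted p = 0.0857), and the knockout segments did not overlap. The difference was 4.65 ± 0.30 (adjusted p = 0.00746).

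Slc16a5, of the monocarboxylate transporter family, read -1.82 and -1.83 in wild-type and -3.80 and -3.09 in knockout small intestine, a fall of 3.08-fold (adjusted p = 0.0284). In the large intestine it read -0.30 and -0.11 in wild type and 1.37 and 1.49 in the knockout. The large intestine effect was 1.63 ± 0.26, and it did not pass (adjusted p = 0.092). The difference of 3.25 ± 0.37 lay just inside the threshold (adjusted p = 0.048), as did Saa4, while D630039A03Rik and Nrg3 (adjusted p = 0.0555) lay just outside. That of Slc16a5 did not pass in 12 of 21 alternatives.

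Gzmb, the granzyme B protease of cytotoxic lymphocytes, read -3.25 and -3.61 in wild-type and -4.55 and -4.50 in knockout small intestine. In the large intestine it read -4.73 and -5.14 in wild type and -3.15 and -3.01 in the knockout. The knockout large intestine thus lay above the wild-type small intestine. It fell 2.14-fold in the small intestine (adjusted p = 0.0391) and rose 3.62-fold in the large intestine (adjusted p = 0.0409). The difference was 2.95 ± 0.32 (adjusted p = 0.0444) and did not pass in 15 of 21 alternatives.

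The T and NK cell list, to which Gzmb belongs, moved with its small intestine value. Of 22 measured members 10 fell and 0 rose in the knockout small intestine, and 1, Gzmb, rose in the large intestine. Over all genes 3.55% fell and 6.47% rose in the small intestine, and 0.165% rose in the large intestine. The list's median, centred on the mean of each gene, was 0.46 and 0.66 in wild-type and -0.64 and -0.76 in knockout small intestine, and 0.12 and 0.31 against 0.29 and -0.41 for the same genotypes of the large intestine. The part of lymphocyte number in the Gzmb result was not tested. Cd3g, part of the signalling unit of the T cell receptor, fell by 3.02 in the small intestine (adjusted p = 0.0111), and its group means in wild-type and knockout large intestine were -1.81 and -2.15. Cd8a, the co-receptor of cytotoxic T cells, fell in the small intestine (adjusted p = 0.0197), where the knockout was not well above background, and its group means in wild-type and knockout large intestine were -4.62 and -5.04.

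Saa4, a serum amyloid A protein made mainly in liver, was not well above background in either small intestine group or in wild-type large intestine. It read -4.73 and -4.88 in knockout large intestine, at least 5.47-fold higher (adjusted p = 0.0371). The difference was 4.43 ± 0.51 (adjusted p = 0.048), and its small intestine side has no measured fold. The liver list was at 3.36 on knockout large intestine replicate 2 and at -1.02 on replicate 3, and its part in the Saa4 result was not tested. The difference of Saa4 did not pass in 17 of 20 alternatives and was as low as 1.32.

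Mroh4 read -5.52 and -4.96 in wild-type small intestine and was not well above background in the knockout, a fall of at least 3.37-fold (adjusted p = 0.0195). It read -5.59 and -6.33 in wild-type and -4.66 and -4.23 in knockout large intestine, where the effect of 1.52 did not pass (adjusted p = 0.176). The difference was 4.20 ± 0.48 (adjusted p = 0.048), did not pass in 17 of 20 alternatives and was as low as 1.48.

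Ttll9, a tubulin tyrosine ligase-like enzyme, ran the other way. It read -2.87 and -2.59 in wild-type and -5.14 and -5.39 in knockout large intestine, a fall of 5.81-fold (adjusted p = 0.0254). In the small intestine wild type was not well above background with this probe, and the knockout (-6.63 and -6.58, 1 of 2 arrays well above) was at least 1.6-fold higher (adjusted p = 0.0247). The difference was -4.04 ± 0.32 (adjusted p = 0.0146). Of its 3 kept probes 1 gave a difference of 0.38, so that the reversal holds for some Ttll9 probes only.

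Zg16 was among the genes that rose in the knockout small intestine. It encodes a lectin-like protein that goblet cells secrete into mucus. The probe (chromosome 7, 134193837 to 134193896, mm9) read 1.66 and 0.99 in wild-type and 5.28 and 5.11 in knockout small intestine, and 6.71, 6.90, 7.26 and 7.39 in the large intestine, the last 2 from the knockout. Zg16 rose 14.6-fold in the small intestine (3.87 ± 0.26, adjusted p = 0.00338), and its large intestine effect was 0.52 ± 0.26 (adjusted p = 0.44). The difference was -3.35 ± 0.37 (adjusted p = 0.0444) and did not pass in 11 of 21 alternatives. The knockout small intestine thus stood between wild-type small intestine and both large intestine groups, which did not overlap with it.

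Zg16 was not followed by the goblet cell list as a whole. Of its 22 measured members 2 rose and 3 fell in the small intestine, 1 rose in the large intestine, and the median difference was 0.43. Zg16 is also expressed by the exocrine pancreas, whose list stood at -1.46 and -1.64 in wild-type and -1.40 and -1.68 in knockout small intestine.

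Mup20, a major urinary protein, was not well above background in wild-type small intestine with the probe used (another kept probe was, on 1 array) and read -3.31 and -2.93 in the knockout, at least 15.3-fold higher (adjusted p = 0.002). In the large intestine it read -5.98 and -5.79 in wild type and -6.83 and -6.87 in the knockout, an effect of -0.96 ± 0.21 that did not pass (adjusted p = 0.166). The difference was -5.24 ± 0.29 (adjusted p = 0.00642), and a second probe gave -0.69. Mup genes are near-identical copies, so that the probe's gene is uncertain. The liver list, where Mup genes are mostly expressed, stood at -0.20 and -0.18 in wild-type and -0.39 and -0.48 in knockout small intestine.

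Crisp3, a cysteine-rich secretory protein, was well above background in knockout small intestine alone (-4.11 and -4.12), at least 8.69-fold above wild type (adjusted p = 0.00467), with a difference of -4.25 ± 0.44 (adjusted p = 0.0355). The clone-named 1700007K13Rik read -4.64 and -4.76 in knockout small intestine, at least 5.99-fold above wild type (adjusted p = 0.00338), and -6.28 to -5.59 on the large intestine arrays. Its difference was -3.64 ± 0.37 (adjusted p = 0.0338). For Crisp3 and for 1700007K13Rik the difference did not pass in 12 of 20 alternatives each. Rax, a homeobox gene, read -5.75 and -5.65 in knockout small intestine, at least 2.83-fold above wild type (adjusted p = 0.00789), and -6.55 to -5.99 in the large intestine. Its difference was -2.46 ± 0.25 (adjusted p = 0.0338) and did not pass in 16 of 20 alternatives. All 3 are dim, and each had a group that was not well above background.

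Changes on the large intestine side were led by Klk15 and Sprr2k. Klk15, a kallikrein-related secreted protease, read -0.68 and -0.20 in wild-type and -5.55 and -6.22 in knockout large intestine (chromosome 7, 51194901 to 51194960, mm9). It fell 43.6-fold there (-5.44 ± 0.37, adjusted p = 0.00711). It was not well above background on any small intestine array, so that no small intestine effect could be measured, and the difference was -5.65 ± 0.53 (adjusted p = 0.0252). The exocrine pancreas list was high on 1 array of each large intestine group, and its part in the Klk15 result was not tested. The predicted gene Gm16368 had a like course, reading -4.0 and -3.83 in wild-type large intestine and not well above background elsewhere. It fell at least 10.67-fold (adjusted p = 0.00608), with a difference of -5.59 ± 0.50 (adjusted p = 0.0242).

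Sprr2k, of the small proline-rich proteins of squamous epithelium, was well above background in knockout large intestine alone. It read -2.72 and -2.16 there and -9.51 to -8.50 on the other 6 arrays. This was a rise of at least 28.1-fold in the large intestine (adjusted p = 0.00382), and the difference was 6.72 ± 0.50 (adjusted p = 0.0116). Sprr2k was kept for testing only through the knockout large intestine. Sprr2 genes are close paralogs, and their probes may share signal. Of the 15 measured genes of the squamous and cornified envelope list, which does not include Sprr2k, 1 rose in the small and 2 in the large intestine, and the median difference was 0.13 beside 0.14 over all genes.

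Muc5b, a gel-forming mucin, fell in both segments but by unequal amounts. It read -5.33 and -5.75 in wild-type and -6.40 and -6.49 in knockout small intestine (1 of 2 knockout arrays well above background), a fall of 1.86-fold (adjusted p = 0.0477). It read -1.87 and -1.90 in wild-type and -5.59 and -5.38 in knockout large intestine, a fall of 12.1-fold (adjusted p = 0.00382). The knockout large intestine came to lie at the level of the wild-type small intestine, with overlap. The difference was -2.70 ± 0.30 (adjusted p = 0.0475) and did not pass in 13 of 20 alternatives.

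The normal difference between the segments gives these values their context. Between wild-type large and small intestine 3994 of all genes differed (20%), and 18 of the 28 did, 12 higher in the large and 6 in the small intestine, beside 9.99% of all genes that were higher in the large intestine. Of the 9 genes with a negative difference 8 were higher in wild-type large intestine, among them Zg16 (5.48) and Muc5b (3.66). The wild-type small intestine was not well above background with the probe used for Klk15, Ttll9, Gm16368, Mup20, 1700007K13Rik and Rax. The same held in wild-type large intestine for Olfm4 and 4930579F01Rik, so that no exact value is given for these genes. Among the 8 with a negative difference, only Zg16 and Muc5b were thus well above background in both wild-type groups. The gap between the segments was larger in the knockout than in wild type for 18 of the 28 and smaller for 10, beside 9724 and 10278 of all genes. It was larger for 16 of the 19 genes with a positive difference and for 2 of the 9 with a negative one. These contrasts share arrays with the difference and were not tested against it.

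Across the lists of cell types and programs, members that differ between segments could not be counted firmly. A threshold of 0.10 gave 1494 genes (7.47%), 402 positive (2.01%) and 1092 negative (5.46%), but 1436 of them had an adjusted p between 0.09 and 0.10. Their number was 75 when flagged spots were kept and 31 without the filter on background. The lists are therefore described by each segment's own calls at 0.05 and by medians, beside those over all genes (-0.10 in the small intestine, 0.00 in the large intestine, 0.14 for the difference). By these calls 6.47% of all genes rose and 3.55% fell in the small intestine, and 0.165% rose and 0.145% fell in the large intestine.

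**Figure D4:**
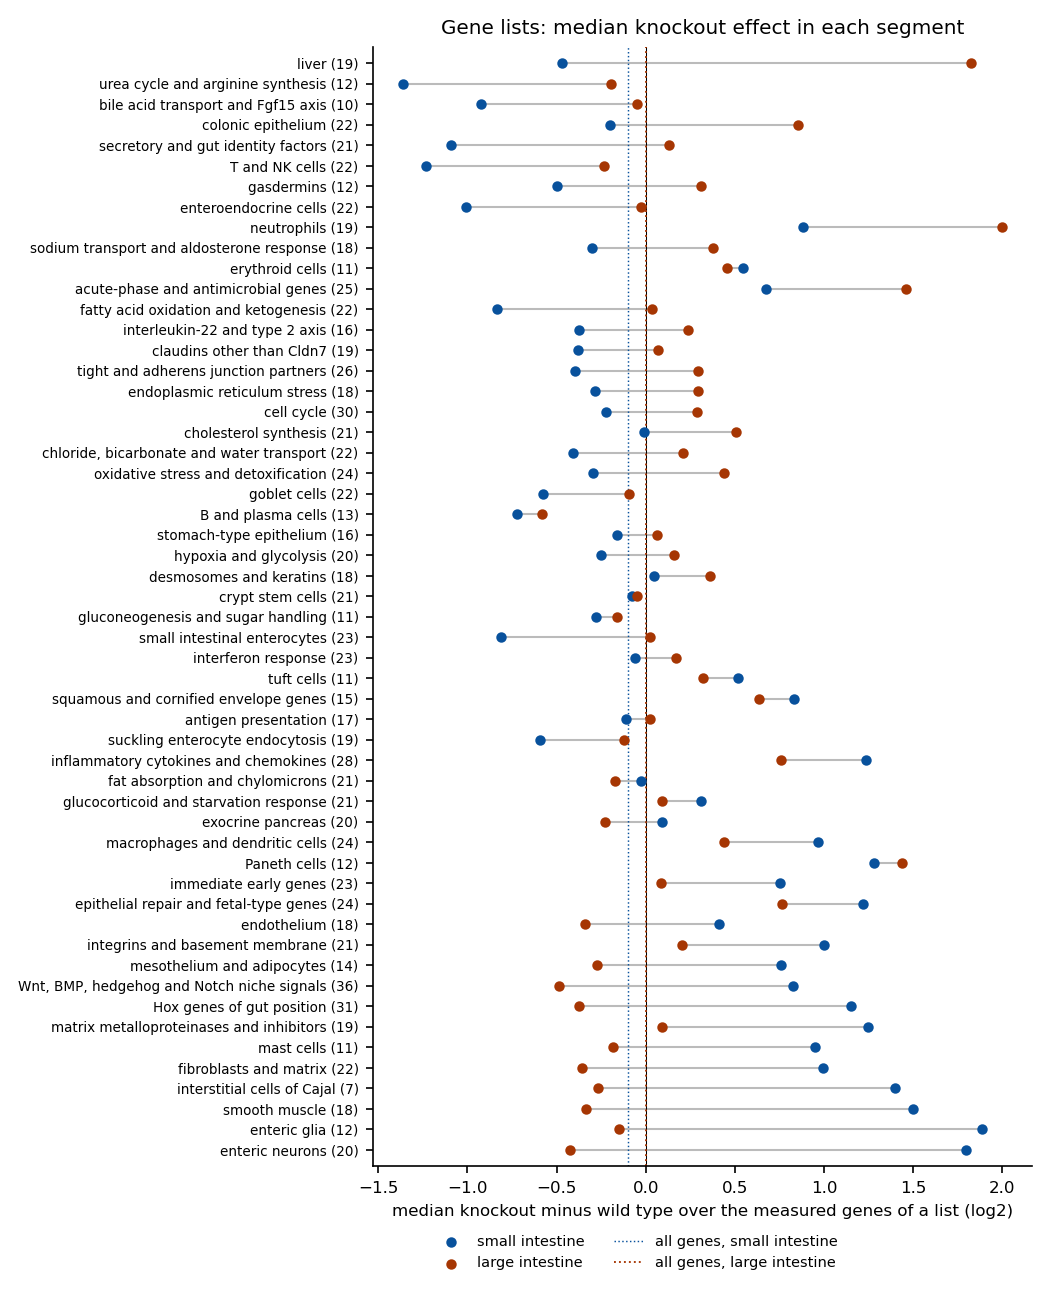
Median knockout minus wild type (log2) over the measured genes of each list (their number in parentheses) in the small and the large intestine, ordered by the median difference; dotted lines mark the medians over all genes. Lists of neurons, glia, smooth muscle and fibroblasts lie to the right in the small intestine (1.0 to 1.89) and slightly below 0 in the large intestine (-0.43 to -0.15).

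Median knockout effects of the muscle wall and connective tissue lists lay above 0 in the small and below 0 in the large intestine, where few genes of any kind passed (0.31%). Of 20 enteric neuron genes 11 rose in the small and 0 changed in the large intestine, with medians of 1.80 and -0.43 and a median difference of -2.32. Of 12 enteric glia genes 7 rose and 1 fell in the small intestine (median difference -2.01). Erbb3, a receptor of the glial lineage that epithelium also expresses, was the member that fell, by 1.37 (adjusted p = 0.0344).

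Of 18 smooth muscle genes 2 rose in the small intestine, with a median difference of -1.79, and of 22 fibroblast and matrix genes 4 rose (median difference -1.38), beside 6.47% of all genes that rose there. Dcn, a collagen-binding proteoglycan, rose by 0.97 in the small intestine (adjusted p = 0.0382). The neuron list stood at -0.50 and -1.51 on the wild-type and 0.41 and 1.12 on the knockout small intestine arrays, so that the groups did not overlap but each spread widely. On the large intestine arrays it stood at 0.28 and 0.31 in wild type and 0.15 and -0.31 in the knockout. Of the 31 Hox genes of gut position 4 rose in the small intestine (median difference -1.19), among them Hoxb3 and Hoxd3. Of 36 niche signal genes 5 rose and 3 fell there (median difference -1.15). The share of muscle wall in each fragment and its part in these values were not tested.

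**Figure D5:**
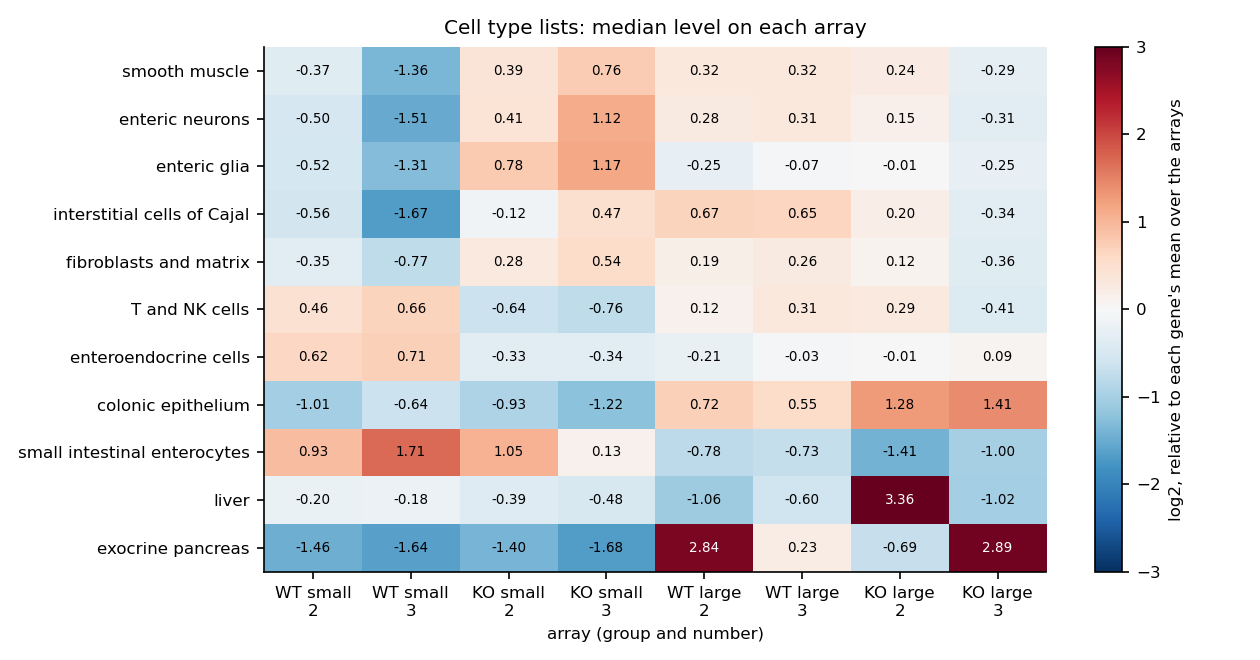
Median level of cell type lists on each array (columns, by group and number), as log2 level minus the mean of the gene over all 8. The muscle, nerve and fibroblast rows are lowest on wild-type small intestine replicate 3 (-1.67 to -0.77), and the liver and pancreas rows stand out on single large intestine arrays.

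Lists of epithelial cells and programs went both ways. Median differences were negative for Paneth cells (-0.49), epithelial repair and fetal-type genes (-0.60) and fat absorption (-0.22), and positive for others. The Paneth list nevertheless had positive median effects in both segments, 1.28 in the small and 1.44 in the large intestine. For the repair list these medians were 1.22 and 0.77, and for fat absorption -0.03 and -0.17. Of the 22 enteroendocrine genes 8 fell and 1 rose in the small intestine and 0 changed in the large intestine (median difference 0.89). Neurog3, which commits progenitors to the endocrine lineage, fell by 1.96 in the small intestine (adjusted p = 0.0231), and its large intestine group means were 0.51 in wild type and 1.13 in the knockout. Of the 21 secretory and gut identity factors 7 fell and 2 rose in the small intestine (median difference 1.20). Cdx2, the homeobox factor that sets intestinal identity, fell by 1.73 (adjusted p = 0.0391), with large intestine means of 2.31 and 3.09. Sox2, a factor of foregut epithelium and of glia, rose by 3.00 in the small intestine (adjusted p = 0.0277), with large intestine means of -4.15 and -4.81.

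The urea cycle and arginine list had 5 of 12 genes lower in the small intestine and 1, Arg1, higher in the large intestine (median difference 1.65). Cps1, which makes carbamoyl phosphate, fell by 2.82 in the small intestine (adjusted p = 0.0235) and had large intestine means of -2.12 and -2.0. Arg1, which cleaves arginine, rose by 2.97 in the large intestine (adjusted p = 0.0338) with an effect of -0.25 in the small intestine, and its difference of 3.22 ± 0.47 did not pass (adjusted p = 0.0928). Both genes are also expressed in liver. On knockout large intestine replicate 2, where the liver list was at 3.36, Arg1 read -1.12 and Cps1 -1.49, and on replicate 3, with the list at -1.02, they read -2.04 and -2.52. The part of liver RNA was not tested. Of the 22 colonic epithelium genes 2 rose and 4 fell in the small and 1 rose in the large intestine. Their median effect was -0.20 in the small and 0.85 in the large intestine. Car1, the carbonic anhydrase of colonocytes, had an effect of 2.48 in the large intestine (adjusted p = 0.0883) and -0.46 in the small intestine. Its difference of 2.94 ± 0.56 did not pass (adjusted p = 0.0994).

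Other claudins did not pass the difference. Of the 19 measured, 2 fell and 1 rose in the small intestine and 0 changed in the large intestine. Cldn15, which forms sodium-permeable pores, fell by 2.34 in the small intestine (adjusted p = 0.0119), with an effect of -0.41 in the large intestine and a difference of 1.94 ± 0.34 (adjusted p = 0.0994). Cldn14 fell by 1.49 (adjusted p = 0.0377) and Cldn10 rose by 2.12 (adjusted p = 0.0396) in the small intestine, with large intestine effects of 0.22 and -0.22. Of the 26 genes of the tight and adherens junction list 2 rose and 2 fell in the small intestine. A difference above 0 was found for 23 of the 26 (median 0.62), beside 11425 of all 20002 genes (median 0.14). Jam3 (1.37) and Jam2 (1.25), junctional adhesion molecules, rose and Patj, a scaffold of tight junctions, fell by 1.39 in the small intestine, and none of the 3 passed in the large intestine. Jam2 and Jam3 were among the 3 members with a negative difference. Of the 23 small intestinal enterocyte genes 0 passed the difference. Their median effects were -0.81 in the small and 0.02 in the large intestine, and Myo1a, Mgam and Vil1 had the smallest p, with differences of 1.70 ± 0.50, 2.26 ± 0.81 and 1.24 ± 0.48. In the sodium transport list the smallest p belonged to Ren1 (2.02 ± 0.26, adjusted p = 0.0666), Atp1b1 (0.97 ± 0.29) and Scnn1b (1.17 ± 0.37). Scnn1b was well above background on 1 array of wild-type and 0 of knockout small intestine. Its difference kept its sign in 19 of 20 alternatives and was as low as -0.15.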

How the data were processed

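Total RNA from intestinal fragments was hybridised to 8 single-colour Agilent arrays. Per the file headers, the authors deposited spot intensity values that Agilent Feature Extraction 10.7.3.1 had corrected for background and spatial trend, with probe positions on mm9. The series table they deposited holds the authors' normalized intensity values on a linear scale. R 3.3.0 was used per the submitters' processing notes. How the table was normalized is not given in the sources used here.

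For the present comparison the processed signal was put on the log2 scale and centred on each array's 75th percentile of 59305 non-control spots (2642.5 to 3571.77 signal units). Of 55681 probes 302 were dropped for outlier flags. Probes were kept when at least 1 group had both arrays well above background, and the brightest named probe stood for a gene (20002 genes from 25996 named probes). Names came from the accession (26056 probes), a current symbol (3200) or an older symbol (930) in a gene table of GRCm38.p6, or from the file (2419), and 23076 probes had none. Between 62% and 71.1% of probes were well above background on an array.

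Groups were fitted in R 4.3.3 with limma 3.58.1 over all 8 arrays with a mean for each group (4 residual degrees of freedom), empirical Bayes moderation and Benjamini-Hochberg adjustment over all genes. The fit was tested on simulated data. Alternatives were normexp (offset 50), quantile, median and no scaling, the authors' normalized values, 2 other background filters, flagged spots kept, all probes of a gene averaged, a trended robust prior, 2 blocks, the 2 compared groups alone and each array left out. Leaving out both knockout arrays numbered 3 was added after seeing the data.

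The genes, lists and rules were chosen with earlier results of these data known. Named were Cldn7, the 12 largest differences each way among genes that passed, all reversed genes, up to 4 members of each list that passed, and up to 3 of the claudin, junction, stem cell, enterocyte, colonic and sodium lists in any case. Acer1, Aldh1a7, Slco4a1, 3 clone or predicted genes and the other list members were chosen after their values were seen. A few list members are left unreported.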

Additional observations from a re-analysis of the deposited data

Results flagged for a closer look

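All 28 genes whose knockout effect differed between the segments by the test of the difference itself (large minus small intestine, log2) are given with that value. Positive differences were found for Olfm4 (7.56), Gsdmc4 (7.32), Gsdmc3 (7.01), Sprr2k (6.72), Gsdmcl-ps (5.51), Gsdmc (5.49), Ccl28 (4.84), 4930579F01Rik (4.72), Ak7 (4.68) and Ms4a12 (4.65). They were also found for Saa4 (4.43), Mroh4 (4.20), Ces2a (4.05), Acer1 (3.82), Gstm3 (3.45), Aldh1a7 (3.39), Slc16a5 (3.25), Slco4a1 (2.99) and Gzmb (2.95). Negative differences were found for Klk15 (-5.65), Gm16368 (-5.59), Mup20 (-5.24), Crisp3 (-4.25), Ttll9 (-4.04), 1700007K13Rik (-3.64), Zg16 (-3.35), Muc5b (-2.70) and Rax (-2.46).

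Of these genes, 11 were well above background on all 8 arrays and 14 on at least 1 array of every group. Of the 5 with more than 1 kept probe, 4 had every probe in 1 direction.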

How the results depend on the processing

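The 28 differences kept their sign in each alternative in which the gene was tested, while which genes passed did not hold. The count was 15 with no background filter, 5 of the 11 testable with probes well above background on all arrays, 0 with genotype and number as a block (limma, 4653 genes at an unadjusted p under 0.05), and 11 without both knockout arrays numbered 3 (1 shared). It was 1494 at an adjusted p under 0.10, and 1 to 986 with 1 array left out. Normexp gave 32 (21 shared) and 34 passed in the deposited values (24 shared).

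Genes with a reversed effect numbered 3 with normexp, 5 with quantile normalization, the deposited table, the mean of a gene's probes or a trended robust prior, 4 without a filter or when both segments had to pass, 0 with all arrays above background, 23 with no minimum size, and 1 to 50 with 1 array left out. In the small intestine 869 genes passed with no scaling, 488 with no filter, 14 without both knockout arrays numbered 3, 35 with the 2 groups alone and 70 to 3827 with 1 array left out. In the large intestine 101 passed with median scaling, 31 with no scaling, 19 with no filter, 32 with all arrays above background, 100 without both knockout arrays numbered 3, 121 with the 2 groups alone and 0 to 86 with 1 array left out. The difference of Cldn7 ran from 0.19 to 1.45 with 1 array left out and passed once. The cause of these changes was not tested.

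Deviations of same-numbered arrays correlated at 0.0087 to 0.26, and 4 of 6 values were above 0.1. Not every pair was, and the labels do not say whether a number marks 1 animal. Each number also had its own slide row, so that a shared animal and a shared row cannot be told apart. The replicate block gave 19 genes for the difference (13 shared), 4 reversed, 1145 in the small and 15 in the large intestine. Scaling moved the median difference over all genes from 0.14 to between 0.067 and 0.24. With 2 arrays a group and a median standard error of 0.39, small differences were not detectable.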

Other observations

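A few named genes lay between the thresholds of 0.05 and 0.10 with an adjusted p under 0.09 and are given as values. Ren1, the protease renin, rose in both segments, by 1.11 in the small (adjusted p = 0.0284) and by 3.13 in the large intestine (adjusted p = 0.00382), and its difference of 2.02 ± 0.26 did not pass (adjusted p = 0.0666). Sult1c2, a sulfotransferase of gastric and intestinal epithelium, fell by 4.77 in the small intestine and read -0.48 and -0.42 as group means in wild-type and knockout large intestine (difference 4.83 ± 0.65, adjusted p = 0.0734). Wnt3, a Wnt ligand of Paneth cells, fell by 2.25 in the small intestine and was not well above background in the large intestine (difference 2.48 ± 0.35, adjusted p = 0.082). Rspo2, a stromal amplifier of Wnt signals, rose by 1.64 in the small intestine, with group means of -2.06 and -3.30 in wild-type and knockout large intestine (difference -2.88 ± 0.40, adjusted p = 0.082). Timp4, a metalloproteinase inhibitor, rose by 1.54 in the small intestine, with means of -1.28 and -2.39 in the large intestine (difference -2.65 ± 0.36, adjusted p = 0.0753).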
